A study of Homo sapiens with 2 samples.

Results

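The autosomal genes for forkhead transcription factors were described by the methylation of their CpG cytosines in 2 libraries, 1 from SKNO-1 cells and 1 from SKNO1-siAE cells. Members were the protein-coding genes whose symbol is FOX, a letter and digits in GENCODE release 44, placed on GRCh37 (hg19). Of 42 such genes, 41 had at least 10 CpG cytosines with 5 or more reads in both libraries, and 18100 of the 19229 autosomal protein-coding genes reached the same number. FOXL3 was left out with 0 shared sites, and the members with the fewest were FOXD1 and FOXC1 with 30 each. In each gene the promoter, from 1500 bp upstream to 500 bp downstream of the gene start, was kept apart from the rest of the gene, and an interval was compared where it held at least 10 shared sites. That left 37 promoters and 41 rests of genes. FOXK1 had 0 shared promoter sites, and FOXC1 and FOXD4 had 9 each.

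SKNO-1 is an established acute myeloid leukemia line with the t(8;21) translocation, whose fusion product is RUNX1-RUNX1T1 (AML1-ETO). SKNO1-siAE was made from it with a lentiviral vector, pRRLcPPT.hPGK, that carries the siAGF1 oligonucleotides against the fusion junction and silences the fusion transcript. The parental line carried no vector, and a line with an empty vector was not analysed here. Methylation was read by capture and sequencing of bisulfite-treated DNA (MCC-Seq), a treatment that turns unmethylated cytosine into uracil and leaves 5-methylcytosine unchanged.

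Forkhead factors share a winged-helix DNA-binding domain that recognises a short AT-rich motif. The FOXA proteins are pioneer factors that bind their sites in closed chromatin. The FOXO proteins are phosphorylated by AKT and leave the nucleus when growth factor signalling is active, and in blood they hold stem cells in quiescence and activate genes of cell cycle arrest and apoptosis. Most other subfamilies act in the embryo, in mesoderm, neural crest, endoderm, eye, ear or brain, and many of their genes lie in CpG-rich DNA. In such promoters, dense methylation usually goes with a silent gene, and methylation within a transcribed gene is common.

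A methylation level below is the share of reads at a cytosine that were methylated, from 0 to 1, and the level of an interval is the mean over its shared sites. All differences are SKNO-1 minus SKNO1-siAE. With 1 library per line there is no replicate error and no test of the lines, so an interval was called by size, at a difference of at least 0.2 in either direction. The intervals given with pooled reads are 95% Wilson intervals and cover counting error only, as do the limits given for shares of 0, which stand for 3 methylated reads. Reads of 1 molecule and both strands of 1 CpG are not independent. The 3168726 shared sites of the genome had a median depth of 16 reads in SKNO-1 and 15 in SKNO1-siAE, and their mean level was 0.587 and 0.655, so that a lower level in SKNO-1 was the common direction outside the forkhead genes too. The promoters of members held 15 to 148 shared sites, and their reads relative to all reads of the library differed by a log2 ratio between -0.770 and 0.837. These files hold no transcript levels, so neither expression nor the identity of the lines was checked.

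Of the 37 forkhead promoters, 13 were low in both libraries and 12 high in both, 7 differed by 0.2 or more, and 5 (FOXC2, FOXF2, FOXI1, FOXL1 and FOXO6) were in none of these groups. The 13 were low at a level under 0.2 and are 35.1% of the members, against 44.6% of all 15418 promoters measured. The 12 were high at a level above 0.8 and are 32.4%, against 14.2% of all promoters. The medians of members were 0.586 (SKNO-1) and 0.723 (SKNO1-siAE), while the medians over all promoters were 0.176 and 0.247. Forkhead promoters were thus more often methylated than promoters at large in both lines, although 73.0% of them were CpG-rich (GC content above 50% and an observed to expected CpG ratio above 0.6 over the whole interval) against 45.6% of all promoters measured. Among CpG-rich promoters with enough sites, 8 of 27 members (29.6%) and 9.35% of all genes were high in both. The members were picked by name and not by these levels, and no test was made of these shares.

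Of the promoters, 5 were lower in SKNO-1 by at least 0.2 and 2 were higher. The 5 of 37 (13.5%) stand against a background of 13.9% of all promoters lower, and the 2 of 37 (5.41%) against 3.01% higher. Among CpG-rich promoters, 2 of 27 were lower (7.41%; background 11.6%) and 2 of 27 higher (7.41%; background 2.62%). The count of lower promoters was therefore near that of the genome, and that of higher promoters rested on FOXN4 and FOXP2. The median difference was 0, with 18 promoters below and 16 above it, and 70.3% of members lay within 0.1, as did 70.5% of all promoters. The median difference of all promoters was -0.00835.

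**Figure D1:**
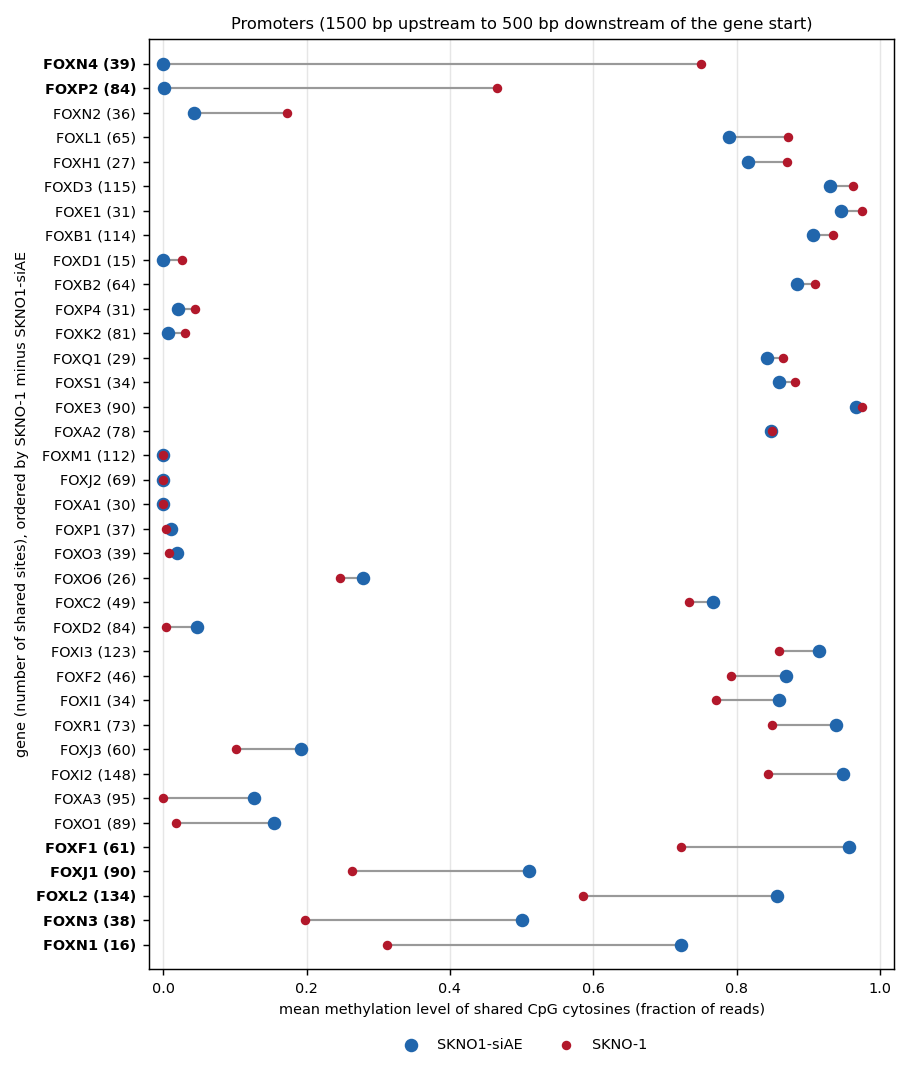
Mean methylation level of each forkhead promoter in SKNO-1 (small red points) and SKNO1-siAE (larger blue points), in order of the difference, with the number of shared sites beside the symbol and a line joining the libraries. Symbols in bold differ by at least 0.2: FOXN4 and FOXP2 are higher in SKNO-1 at the top, and FOXF1, FOXJ1, FOXL2, FOXN3 and FOXN1 are lower at the bottom.

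**Figure D2:**
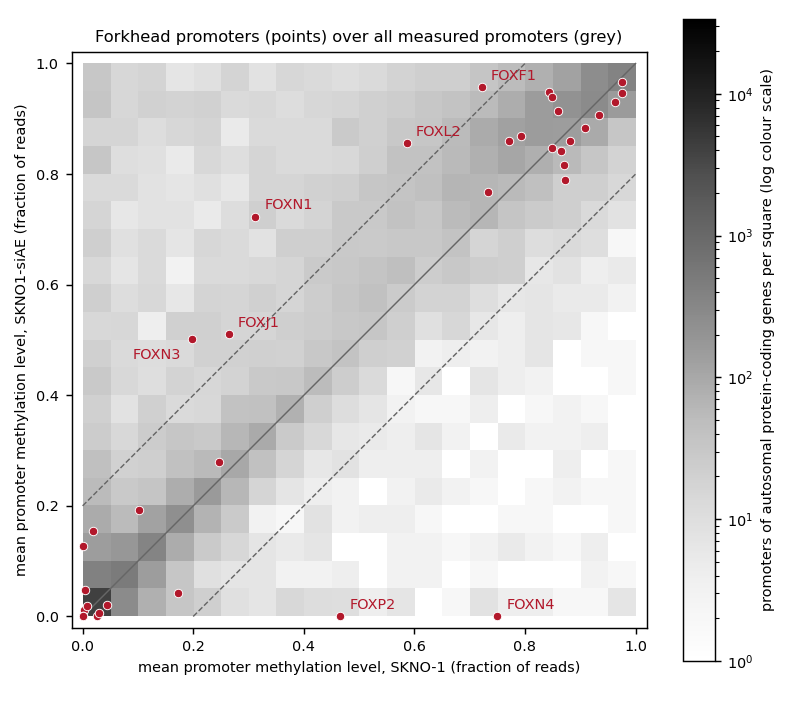
Promoter level in SKNO-1 (horizontal) against SKNO1-siAE (vertical), with forkhead promoters as red points over the number of all measured promoters in each square (grey, log colour scale). The solid line marks equal levels and the dashed lines a difference of 0.2; FOXN4 and FOXP2 lie at the bottom edge with levels of 0 and 0.000476 in SKNO1-siAE.

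The level by distance from the start was averaged over the promoters with sites in each window, so that windows hold different genes. In the 250 bp just upstream of the start, 29 members averaged 0.405 (SKNO-1) and 0.444 (SKNO1-siAE), and all genes had 0.265 and 0.326. Over the 8 windows of the promoter the difference of members ran from -0.0711, at 500 to 251 bp upstream, to 0.0969, at 1500 to 1251 bp upstream, and that of all genes from -0.0631 to -0.0527.

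The set low in both held FOXA1, FOXA3, FOXD1, FOXD2, FOXJ2, FOXJ3, FOXK2, FOXM1, FOXN2, FOXO1, FOXO3, FOXP1 and FOXP4. Their levels ran from 0 to 0.172 in SKNO-1 and from 0 to 0.192 in SKNO1-siAE. FOXM1 drives genes of mitosis, and at its promoter 0 of 1523 reads over 112 sites were methylated in SKNO-1, which allows up to 0.00197, and 0 of 2093 in SKNO1-siAE, which allows up to 0.00143. FOXJ2 (0 of 803 and 0 of 795 reads) and FOXA1 (0 of 574 and 0 of 849) were likewise without a methylated read at their shared sites. Over the sites that each library covered by itself, FOXA1 had 0.0947 over 78 sites in SKNO-1 and 0.118 over 51 in SKNO1-siAE, and FOXJ2 had 0 and 0.0114. With both strands of a CpG merged, FOXA1 differed by -0.168. The FOXM1 interval also overlaps RHNO1, a gene of the DNA damage response, and TULP3. FOXP1, a repressor needed for B cell development, had 0.00318 and 0.0111 over 37 sites, and FOXP4, a related repressor of lung and gut epithelium, had 0.0445 and 0.0205 over 31. The intervals of FOXP1, FOXP4 and FOXA1 also overlap other genes, among them FOXP1-DT, FOXP4-AS1 and TTC6. By pooled reads the low promoters of FOXO1, FOXJ3 and FOXN2 differed by -0.275, -0.180 and 0.201.

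The set high in both held FOXA2, FOXB1, FOXB2, FOXD3, FOXE1, FOXE3, FOXH1, FOXI2, FOXI3, FOXQ1, FOXR1 and FOXS1, most of them genes of embryonic development. Their levels ran from 0.844 to 0.975 in SKNO-1 and from 0.816 to 0.967 in SKNO1-siAE, with differences between -0.104 and 0.0532. FOXD3, which keeps neural crest and pluripotent cells undifferentiated, had 0.962 and 0.930 over 115 sites, in an interval that also overlaps FOXD3-AS1. FOXA2, a pioneer factor of endoderm, had 0.849 and 0.848 over 78 sites, while its relatives FOXA1 and FOXA3 were in the low set.

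The stretches below show the CpGs of a low and of a high promoter. They are the stretches of up to 200 bp outside exons with the most shared sites in each of these sets, on GRCh37, 5′ to 3′ on the strand of the gene, with the CpGs measured in both libraries in capitals. The FOXK2 stretch (chr17:80477010-80477209, + strand, 579 to 380 bp upstream of the start) had 40 sites that averaged 0.0129 in SKNO-1 and 0 in SKNO1-siAE. The FOXI3 stretch (chr2:88752550-88752749, - strand, 538 to 339 bp upstream) had 30 sites at 0.906 and 0.931. FOXK2 is a repressor of broad expression that acts on metabolism and autophagy, and FOXI3 forms teeth, hair and the outer and middle ear. The FOXK2 stretch holds 20 CpGs and the FOXI3 stretch 15, all of them measured.
FOXK2: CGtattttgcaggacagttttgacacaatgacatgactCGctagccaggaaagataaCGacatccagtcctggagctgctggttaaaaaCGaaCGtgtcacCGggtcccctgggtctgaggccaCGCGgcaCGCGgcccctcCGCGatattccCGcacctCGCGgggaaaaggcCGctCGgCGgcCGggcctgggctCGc
FOXI3: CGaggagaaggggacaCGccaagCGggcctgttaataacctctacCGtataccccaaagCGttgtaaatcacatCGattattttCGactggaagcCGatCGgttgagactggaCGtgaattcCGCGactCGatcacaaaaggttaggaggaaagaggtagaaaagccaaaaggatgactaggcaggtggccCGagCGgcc

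FOXN4, which specifies horizontal and amacrine cells of the retina and interneurons of the spinal cord, had the largest promoter difference of any member. Its 39 promoter sites averaged 0.750 in SKNO-1, where single sites ran up to 1, and 0 in SKNO1-siAE, where no site had a methylated read. Of the pooled reads, 249 of 337 were methylated in SKNO-1 (0.739, interval 0.689 to 0.783) and 0 of 475 in SKNO1-siAE, which allows up to 0.00632. The sites formed 2 stretches, and both differed: 25 sites from 1043 to 859 bp upstream and 14 sites from 16 bp upstream to 90 bp downstream of the start, where the level was 0.624 against 0. On the + strand alone the difference was 0.885 and on the - strand 0.690.

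FOXP2, a repressor known for its role in speech and language, was the other promoter with more methylation in SKNO-1. Its 84 sites averaged 0.466 in SKNO-1 and 0.000476 in SKNO1-siAE. Of the pooled reads, 559 of 1310 were methylated in SKNO-1 (0.427, interval 0.400 to 0.454) against 1 of 1458 (0.000686, interval 0.000121 to 0.00387). The level in SKNO-1 was uneven, with 0.761 over 9 sites from 1494 to 1409 bp upstream, 0.359 over 25 sites from 1113 to 818 bp upstream, 0.408 over 45 sites from 426 to 99 bp upstream, and 1 over 5 sites from 444 to 491 bp downstream. In SKNO1-siAE 83 of the 84 sites had no methylated read, whereas in SKNO-1 the values of neighbouring sites ran from 0 to 1. The interval lies at the most upstream start of the gene, and at the start of the canonical transcript, 328488 bp further downstream, the direction was the opposite, with 0.550 in SKNO-1 and 0.948 in SKNO1-siAE over 20 sites.

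The sites were also taken one by one. Fisher's exact test (2-sided) on the reads of each site, with Benjamini-Hochberg adjustment over all shared sites, compares the 2 libraries and not the lines. Of the 2404 promoter sites of members, 198 were called lower in SKNO-1 (8.24%; background 9.92%) and 132 higher (5.49%; background 3.74%). Most of the higher sites belonged to the same genes, with 44 in FOXP2 and 29 in FOXN4. Of the lower sites, 52 were in FOXL2 and 21 in FOXJ1.

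The sequences of the changed stretches of FOXN4 and FOXP2, and that of FOXF1 described next, show where these sites lie. They are the called regions of these promoters, or the 200 bp of them with the most sites, on GRCh37 and written as above. A called region has at least 5 sites no more than 300 bp apart whose smoothed difference is at least 0.2 in 1 direction and that passes a Bonferroni-adjusted Mann-Whitney U test of its site levels. The adjustment is over all shared sites, so a region of few sites cannot pass it whatever its levels. The called regions of members had 21 sites or more. FOXN4 (chr12:109747948-109748132, - strand, 1043 to 859 bp upstream) had 25 sites at 0.821 in SKNO-1 and 0 in SKNO1-siAE. FOXP2 (chr7:113725269-113725468, + strand, 1113 to 914 bp upstream) had 20 sites at 0.427 and 0. FOXF1 (chr16:86542944-86543117, + strand, 1189 to 1016 bp upstream) had 33 sites at 0.565 and 0.979. Each stretch holds 12 to 17 whole CpGs and every one of them was measured. In FOXN4 and FOXF1 the counted sites at the very ends can lie on a CpG that the edge cuts, which is not in capitals.
FOXN4: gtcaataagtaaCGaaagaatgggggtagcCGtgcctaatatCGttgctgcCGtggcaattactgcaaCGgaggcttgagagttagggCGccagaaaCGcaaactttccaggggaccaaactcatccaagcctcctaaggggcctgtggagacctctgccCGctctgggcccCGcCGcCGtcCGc
FOXP2: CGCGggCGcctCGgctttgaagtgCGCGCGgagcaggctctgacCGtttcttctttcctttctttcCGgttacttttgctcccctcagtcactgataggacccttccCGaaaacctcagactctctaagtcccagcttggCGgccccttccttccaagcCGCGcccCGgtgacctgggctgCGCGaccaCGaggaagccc
FOXF1: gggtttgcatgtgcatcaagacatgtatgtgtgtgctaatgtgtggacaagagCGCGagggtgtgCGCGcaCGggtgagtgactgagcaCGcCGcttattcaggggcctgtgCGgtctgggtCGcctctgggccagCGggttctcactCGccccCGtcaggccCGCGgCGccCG

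In these terms 1 of 37 promoters overlapped a called region lower in SKNO-1, that of FOXF1 (2.70%; background 6.14%). FOXN4 and FOXP2 were the 2 of 37 that overlapped a region higher in SKNO-1 (5.41%; background 1.54%). With at least 10 reads per site none of these 3 promoter regions was called, FOXL2 was the 1 promoter with a lower region, and 0 had a higher one. FOXN4 then kept 11 promoter sites, too few for a region to pass the adjustment at any level. The FOXP2 region ran from 1619 to 914 bp upstream, and over its 36 sites 322 of 641 reads were methylated in SKNO-1 (0.502, interval 0.464 to 0.541) and 0 of 481 in SKNO1-siAE, which allows up to 0.00624.

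FOXF1, a factor of lung and gut mesenchyme and of blood vessels, had a promoter level of 0.722 in SKNO-1 and 0.957 in SKNO1-siAE over 61 sites. The pooled shares were 614 of 809 reads (0.759, interval 0.728 to 0.787) and 700 of 730 (0.959, interval 0.942 to 0.971). The difference lay upstream: 53 sites from 1363 to 1006 bp upstream had 0.689 and 0.951, and 8 sites from 455 to 492 bp downstream had 0.938 and 0.995. In SKNO1-siAE 47 of the 53 upstream sites were fully methylated, against 17 in SKNO-1. FENDRR, a long noncoding RNA that starts on the opposite strand, shares most of this interval, and the values cannot be assigned to 1 of these 2 genes. With at least 10 reads per site the difference was -0.175, and with pooled reads it no longer passed 0.2.

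FOXL2, a factor of the ovary and the eyelid, had 134 promoter sites that averaged 0.586 in SKNO-1 and 0.856 in SKNO1-siAE. Of the pooled reads, 1218 of 2019 (0.603, interval 0.582 to 0.624) and 2860 of 3179 (0.900, interval 0.889 to 0.910) were methylated. The strands differed, with -0.424 on the 67 sites of the + strand and -0.116 on the 67 sites of the - strand, so that this promoter passed 0.2 on 1 strand alone. FOXL2 also had fewer reads in SKNO-1, at a log2 ratio of -0.682, and the part of either in the difference was not tested. The interval also overlaps the neighbouring gene FOXL2NB.

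FOXN1 is the master regulator of thymic epithelium, and its 16 promoter sites lay from 677 to 428 bp upstream of the start. Their level was 0.312 in SKNO-1 and 0.723 in SKNO1-siAE, from 67 of 202 reads (0.332, interval 0.270 to 0.399) and 106 of 147 reads (0.721, interval 0.644 to 0.787). FOXN1 was also the only 1 of the 37 members with both intervals measured whose promoter and rest of gene were both lower by 0.2, which 423 of 13509 genes were in all. With 16 sites it is the least densely measured of the 7 promoters that differed, and it had too few sites of at least 10 reads to be measured again. With own sites the promoter difference was -0.260, over 17 sites in SKNO-1 and 32 in SKNO1-siAE. The interval also overlaps the protein-coding gene RSKR.

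FOXN3, a repressor also known as checkpoint suppressor 1, had 0.198 in SKNO-1 and 0.501 in SKNO1-siAE over 38 promoter sites, from 190 of 761 reads (0.250, interval 0.220 to 0.282) and 504 of 770 (0.655, interval 0.620 to 0.687). The interval also overlaps a long noncoding RNA gene. The whole difference came from 20 sites from 444 to 320 bp upstream, at 0.353 and 0.940. The 9 sites from 217 to 165 bp upstream were at 0 in both libraries, and the 9 from 117 to 192 bp downstream at 0.0506 and 0.0247. FOXN3 has several starts, and at that of the canonical transcript, 201916 bp downstream, the level was 0.0437 and 0.0682 over 36 sites, so the difference belongs to the most upstream start.

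FOXJ1, which switches on the genes of motile cilia, had 0.264 in SKNO-1 and 0.510 in SKNO1-siAE over 90 promoter sites, from 631 of 2021 reads (0.312, interval 0.292 to 0.333) and 621 of 1222 (0.508, interval 0.480 to 0.536). The difference was under 0.2 with at least 10 reads per site (-0.168), with pooled reads (-0.196) and on the + strand (-0.174). The interval also overlaps RNF157 and RNF157-AS1. Its start itself was unmethylated, with 0.00615 and 0.0321 over 39 sites from 167 bp upstream to 70 bp downstream. The outermost 6 sites, from 1485 to 1405 bp upstream, were alike at 0.961 and 0.940. Between them and the start, and downstream of it, the libraries differed, with 0.503 and 0.925 over 20 sites from 1177 to 949 bp upstream and 0.160 and 0.824 over 10 sites from 347 to 493 bp downstream.

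**Figure D3:**
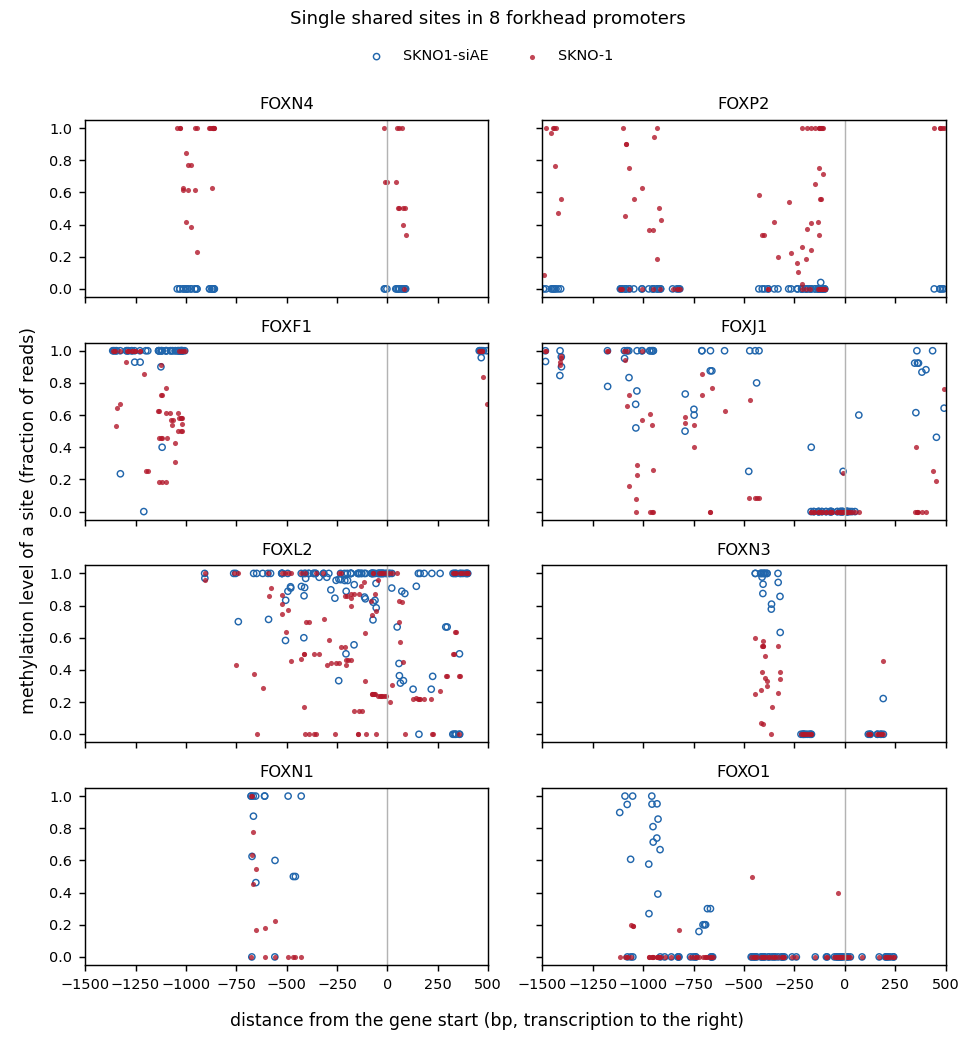
Methylation level of each shared site (vertical) against its distance from the gene start in bp (horizontal) in the 7 promoters that differed by at least 0.2 and in that of FOXO1, with SKNO-1 as filled red points and SKNO1-siAE as open blue circles. FOXN4 and FOXP2 are at or near 0 throughout in SKNO1-siAE, and FOXJ1, FOXN3 and FOXO1 are at or near 0 in both libraries around the start.

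At their most upstream starts the FOXO promoters did not pass 0.2 by the means over all shared sites. At the start of its canonical transcript FOXO3 did, with -0.715, as given with its region. FOXO1, the AKT-regulated factor that controls glucose production and B cell development, had 0.0185 in SKNO-1 and 0.154 in SKNO1-siAE over 89 sites. Its start was clear of methylation in both, with 0.0176 and 0 over 51 sites from 464 bp upstream to 243 bp downstream, while 38 sites from 1116 to 655 bp upstream had 0.0197 and 0.362. By pooled reads, which weight deep sites more, 22 of 1152 and 436 of 1482 reads were methylated, and the difference of -0.275 (interval -0.300 to -0.250) passed 0.2, as did that of -0.215 with at least 10 reads per site. FOXO3, which maintains haematopoietic stem cells, had 0.00769 and 0.0194 over 39 sites, and FOXO6, a mainly neural member, had 0.247 and 0.279 over 26. The promoter differences of the 3 genes ran from -0.136 to -0.0117.

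Of the other members on the list of genes to be described, FOXC2, a factor of lymphatic vessels, had 0.734 and 0.767 over 49 promoter sites. Its interval also overlaps FOXC2-AS1. FOXK2 had 0.0297 and 0.00614 over 81, in the low set. FOXC1 and FOXK1 lacked 10 shared promoter sites, so no call was made. Over the sites that each library covered by itself, FOXK1, which acts in muscle progenitors and on metabolism, had 0.0286 over 68 sites in SKNO-1 and 0.0815 over 53 sites in SKNO1-siAE. FOXC1, a factor of the eye and of the bone marrow niche, had 0.956 and 0.826 over its 9 shared sites, from 1483 to 1364 bp upstream. Over own sites the order was the opposite, with 0.658 over 121 sites in SKNO-1 and 0.843 over 10 in SKNO1-siAE. The 19 promoters outside the list of genes to be described, FOXI3 and FOXJ2 among them, had differences from -0.127 to 0.129, with 6 low and 10 high in both libraries. By pooled reads FOXF2, a factor of gut and palate mesenchyme among them, differed by -0.390 (interval -0.436 to -0.340).

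Outside the promoters, forkhead genes were mostly methylated, and the 5 that differed by 0.2 or more as a whole were lower in SKNO-1. With at least 10 reads per site, or on the - strand alone, the rest of FOXE1 was higher by over 0.2. Over the 41 members, the medians for the rest of the gene were 0.802 (SKNO-1) and 0.868 (SKNO1-siAE), and 0.656 and 0.738 over 16017 genes. It was high in both libraries in 21 members (51.2%), against 26.1% of all genes, and low in both in 0 members, against 6.54%. Of the 41 members, 5 were lower by at least 0.2 (12.2%; background 10.1%) and 0 were higher (0%; background 1.94%). The median difference was -0.0329 for members and -0.0200 for all genes, with 30 members below 0 and 10 above. The share of members lower was near that of the genome.

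**Figure D4:**
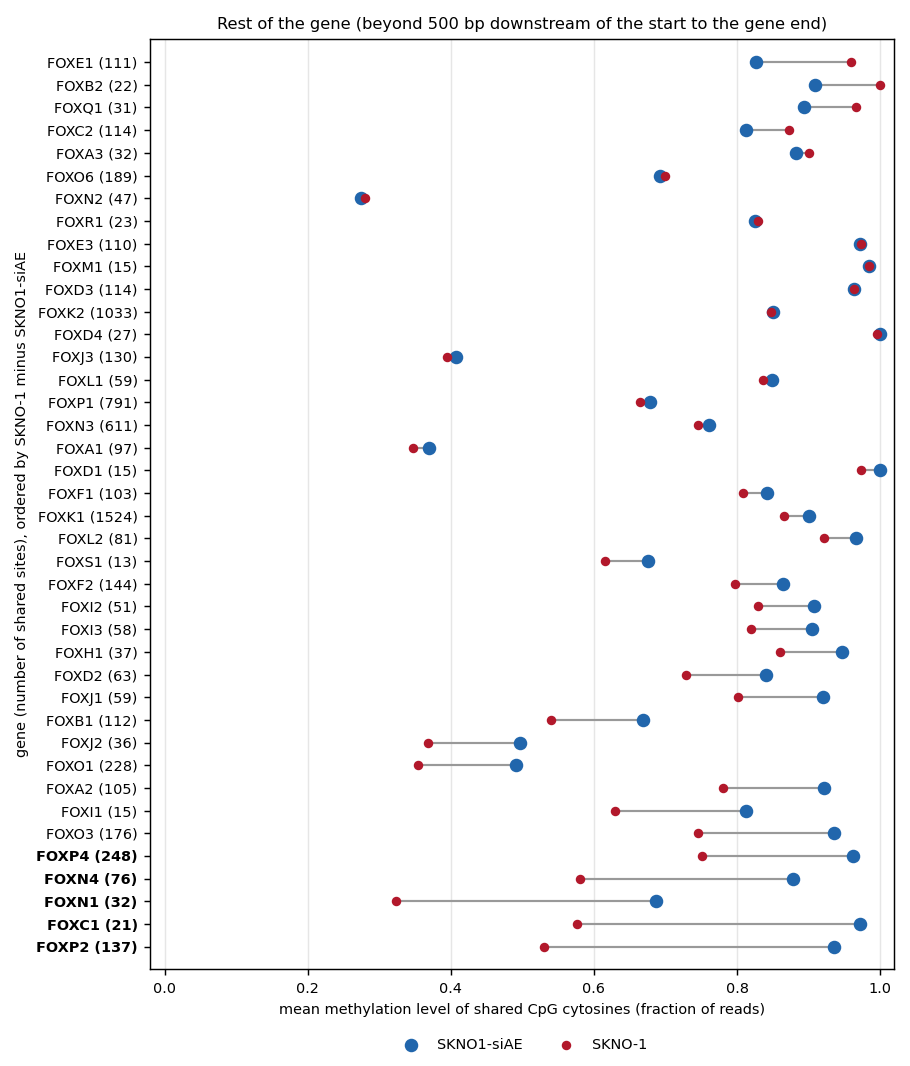
Mean methylation level of the rest of the gene in the forkhead genes reported, beyond the promoter to its end, in SKNO-1 (small red points) and SKNO1-siAE (larger blue points), in order of the difference, with the number of shared sites beside the symbol. The 5 symbols in bold, FOXP4, FOXN4, FOXN1, FOXC1 and FOXP2, differ by at least 0.2, all with the lower level in SKNO-1.

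FOXP2 had the largest difference of these by site means, at 0.530 in SKNO-1 and 0.936 in SKNO1-siAE over 137 sites. Under some other settings FOXN1, FOXC1 or FOXN4 had a larger one, as FOXN1 did with pooled reads, at -0.485 against -0.453. Of the pooled reads of FOXP2, 1788 of 3688 (0.485, interval 0.469 to 0.501) and 3268 of 3485 (0.938, interval 0.929 to 0.945) were methylated. The lower level was spread along the gene: 8 sites 66457 to 66622 bp from the start had 0.149 and 0.889, 13 sites at 299437 to 299742 bp had 0.436 and 1, and 6 sites at 544297 to 544492 bp had 0.125 and 0.962. Closest to the promoter, 39 sites at 1267 to 2153 bp had 0.803 and 0.944. FOXP2 thus had intermediate levels in both intervals in SKNO-1, and an unmethylated promoter and a methylated body in SKNO1-siAE.

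FOXN4 likewise had a higher promoter and a lower rest of gene in SKNO-1, with 0.581 in SKNO-1 and 0.878 in SKNO1-siAE over 76 sites of the rest of the gene. The pooled shares were 931 of 1797 reads (0.518, interval 0.495 to 0.541) and 1040 of 1182 (0.880, interval 0.860 to 0.897). Most of it lay 16879 to 17721 bp from the start, where 34 sites had 0.371 and 0.835, while 15 sites at 30080 to 30561 bp had 0.832 and 0.865. A promoter higher and a rest of gene lower by 0.2 was found in 2 of 37 members, FOXP2 and FOXN4, and in 43 of 13509 genes.

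FOXC1 had 0.576 in SKNO-1 and 0.972 in SKNO1-siAE over 21 sites, all within 1415 to 2553 bp of the start. The pooled shares were 215 of 334 reads (0.644, interval 0.591 to 0.693) and 245 of 257 (0.953, interval 0.920 to 0.973). These are a small part of the gene's CpGs, and over the 125 sites that SKNO-1 covered by itself its level was 0.882, against 0.947 over the 78 of SKNO1-siAE, which ends the call. FOXN1 had 0.324 and 0.687 over 32 sites, from 78 of 291 reads (0.268, interval 0.220 to 0.322) and 464 of 616 (0.753, interval 0.718 to 0.786). Its 21 sites at 17062 to 17892 bp from the start had 0.333 and 0.731. The FOXN1 difference of -0.363 ranged under other settings from -0.485 with pooled reads to -0.210 on the + strand, and was -0.213 with own sites.

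FOXP4 had 0.751 in SKNO-1 and 0.962 in SKNO1-siAE over 248 sites, from 3512 of 4594 reads (0.764, interval 0.752 to 0.777) and 5453 of 5624 (0.970, interval 0.965 to 0.974). Most of this difference lay in 1 stretch, where 60 sites 13175 to 15858 bp from the start had 0.144 and 0.974, and 53 sites at 46938 to 48166 bp had 0.953 and 0.960. The difference was under 0.2 with each library's own sites (-0.0987) and on the - strand (-0.178).

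By single sites, 604 of the 7090 sites in the rest of members were lower in SKNO-1 (8.52%; background 10.8%) and 262 were higher (3.70%; background 4.52%). FOXK1 held 103 of the lower sites of 1524, and FOXP2 69 of 137. Called regions lower in SKNO-1 overlapped the rest of 4 of 41 members, FOXP4, FOXO3, FOXO1 and FOXK1 (9.76%; background 7.84%). A region higher in SKNO-1 overlapped that of FOXK2 alone (2.44%; background 1.93%). Of these 5 genes FOXP4 passed 0.2 as a whole by site means, and FOXO3 did under some other settings. With at least 10 reads per site, FOXO1 no longer overlapped a region.

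In the FOXP4 intron the region (chr6:41528178-41528751, 14059 to 14632 bp from the start) was nearly unmethylated in SKNO-1 and nearly fully methylated in SKNO1-siAE. Its 51 sites had 0.0294 and 0.971, from 12 of 888 reads (0.0135, interval 0.00775 to 0.0235) and 2414 of 2475 (0.975, interval 0.968 to 0.981), and 50 of the 51 were called lower. FOXO1 and FOXO3 each had a region near the start that differed in the same direction. The FOXO1 region (chr13:41238095-41239019, 1759 to 2683 bp from the start, in the first intron) had 32 sites at 0.129 and 0.895, from 103 of 347 reads (0.297, interval 0.251 to 0.347) and 385 of 419 (0.919, interval 0.889 to 0.941).

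The FOXK1 region lay deep in an intron (chr7:4784075-4785028, 62149 to 63102 bp from the start) and had 51 sites at 0.144 and 0.975, with 49 called lower. Its pooled shares were 188 of 878 reads (0.214, interval 0.188 to 0.242) and 1012 of 1051 (0.963, interval 0.950 to 0.973). The rest of FOXK1 as a whole had 0.865 and 0.900 over 1524 sites, a gene mostly methylated in both libraries. Another 37 sites at 56750 to 57465 bp had 0.0773 and 0.817, with 32 called lower, and 77 sites at 29640 to 31151 bp had 0.841 and 0.585, with 25 called higher. In each of the regions of FOXP4, FOXO1 and FOXK1 the sites of the + strand and of the - strand gave the same direction, with SKNO-1 at 0.0556 and 0 in FOXP4, 0.150 and 0.0821 in FOXO1, and 0.104 and 0.189 in FOXK1.

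The sequences of these 3 intronic regions are given for their CpG content, each as the 200 bp with the most shared sites, on GRCh37, 5′ to 3′ on the strand of the gene, with the CpGs measured in both libraries in capitals. FOXP4 (chr6:41528425-41528624, + strand) had 32 sites at 0 in SKNO-1, from 700 reads, and 0.977 in SKNO1-siAE, from 1931 reads. FOXK1 (chr7:4784287-4784486, + strand) had 18 sites at 0.0663 and 0.974. FOXO1 (chr13:41238517-41238716, - strand) had 16 sites at 0 and 0.923, and 9 of its 17 CpGs were measured.
FOXP4: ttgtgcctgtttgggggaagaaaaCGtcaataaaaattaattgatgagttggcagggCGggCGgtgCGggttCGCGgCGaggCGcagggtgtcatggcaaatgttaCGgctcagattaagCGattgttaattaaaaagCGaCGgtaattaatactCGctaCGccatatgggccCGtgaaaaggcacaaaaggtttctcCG
FOXK1: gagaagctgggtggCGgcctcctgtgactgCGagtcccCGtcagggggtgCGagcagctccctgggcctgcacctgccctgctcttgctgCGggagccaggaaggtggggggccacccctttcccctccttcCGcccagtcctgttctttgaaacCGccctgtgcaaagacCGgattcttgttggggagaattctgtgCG
FOXO1: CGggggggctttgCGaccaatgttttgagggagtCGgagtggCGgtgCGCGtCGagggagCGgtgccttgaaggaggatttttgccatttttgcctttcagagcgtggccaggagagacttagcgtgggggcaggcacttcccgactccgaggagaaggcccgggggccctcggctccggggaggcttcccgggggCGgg

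**Figure D5:**
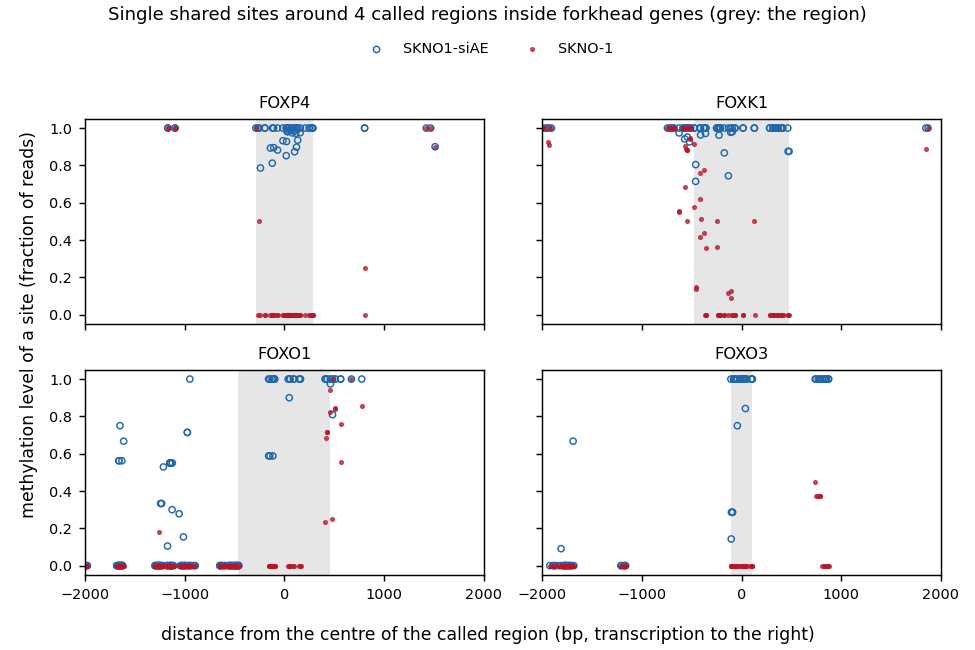
Methylation level of each shared site (vertical) within 2000 bp of the centre of the called region (horizontal, bp) in FOXP4, FOXK1, FOXO1 and FOXO3, with SKNO-1 as filled red points, SKNO1-siAE as open blue circles and the region in grey. In all 4 the SKNO1-siAE sites of the region lie mostly near 1 and the SKNO-1 sites mostly at 0.

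The FOXO3 region (chr6:108882087-108882303, 1049 to 1265 bp from the start, in an exon) had 27 sites at 0 in SKNO-1 and 0.874 in SKNO1-siAE. Of the pooled reads, 0 of 400 were methylated in SKNO-1, which allows up to 0.00750, and 320 of 348 in SKNO1-siAE (0.920, interval 0.886 to 0.944). Unlike the other regions it was read on the - strand alone, with 0 sites on the + strand in either library. A part of it is also close to a copy elsewhere: an alignment of 247 positions, gaps included, over part of the region and 1 of its flanks matched FOXO3B on chromosome 17 at 95.1% identity, and the rest of FOXO3B had 0.921 and 0.945 over 142 sites. Whether reads of that copy entered the FOXO3 value was not tested. The region covers the start of the canonical transcript, 1082 bp downstream of the gene start, and at that start 33 sites had 0 in SKNO-1, from 0 of 453 reads, and 0.715 in SKNO1-siAE, from 320 of 405. The rest of FOXO3 as a whole had 0.746 and 0.936 over 176 sites, a difference of -0.190 that was the nearest to 0.2 of those under it, and SKNO-1 had fewer reads there, at a log2 ratio of -1.31. It passed 0.2 with pooled reads (-0.224), at least 10 reads per site (-0.247), merged strands (-0.271) and the - strand (-0.295), and was -0.00961 on the + strand and -0.0573 with own sites.

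The region in FOXK2 went the other way (chr17:80581805-80582177), with 21 sites at 0.592 in SKNO-1 and 0 in SKNO1-siAE. Of the pooled reads 832 of 1486 (0.560, interval 0.535 to 0.585) and 0 of 833, which allows up to 0.00360, were methylated. It lies 104216 to 104588 bp from the start of FOXK2 in a part that overlaps WDR45B, an autophagy gene on the opposite strand, so it cannot be given to FOXK2 alone. The rest of FOXK2 had 0.848 and 0.851 over 1033 sites.

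The other members named did not pass 0.2 in the rest of the gene. FOXO1 had 0.354 and 0.491 over 228 sites, FOXO6 had 0.700 and 0.692, FOXP1 had 0.665 and 0.678 over 791 sites, and FOXM1 had 0.984 in both over 15. FOXN3 had 0.746 and 0.761 over 611 sites, although 14 sites 772 to 1154 bp from the start, next to its changed promoter, had 0.0211 and 0.949. FOXA1 had 0.347 and 0.370, and FOXA2 had 0.781 and 0.922. FOXC2 had 0.873 and 0.813, FOXD3 0.963 and 0.964, FOXF1 0.809 and 0.842, FOXL2 0.922 and 0.967, and FOXJ1 0.802 and 0.920. The 21 members not named had differences from -0.183 in FOXI1 to 0.134 in FOXE1. In SKNO-1 25 of 37 promoters (67.6%), and in SKNO1-siAE 27 (73.0%), were less methylated than the rest of the same gene, against 76.0% and 73.2% of all 13509 genes with both intervals.

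The genes around the FOXO factors were listed by their known roles and counted. Of 13 promoters measured among the kinases, phosphatases and modifiers that act on FOXO proteins, 0 differed by 0.2 in either direction, with differences from -0.0448 to 0.125, and 9 were low in both libraries, as were 44.6% of all promoters. Among them were PIK3CA (0.00169 and 0.00293) and PDPK1 (0 and 0). Of 14 promoters measured among genes that FOXO factors are known to activate or repress, 2 were lower in SKNO-1 and 1 was higher, where 13.9% and 3.01% of all promoters were, and 7 were low in both libraries. BCL2L11, which encodes the apoptosis protein BIM, had 0.0125 in SKNO-1, from 7 of 737 reads, and 0.954 in SKNO1-siAE, from 2049 of 2120, over 51 sites, with -0.964 on the + strand and -0.919 on the - strand. The rest of BCL2L11 had 0.210 and 0.237 over 159 sites. The promoters of these lists lie at the most upstream start of each gene, and other starts were not checked. CCND2 (cyclin D2) had 0.103 and 0.411 over 34 sites, but the strands went opposite ways, with 0.0597 over 7 sites of the + strand and -0.402 over 27 of the - strand. IRS2, an insulin receptor substrate, had 0.296 and 0.0142 over 39, with 0.440 on the + strand and 0.182 on the - strand. In the rest of the gene 0 of 15 and 2 of 19 of these lists were lower, the latter PCK1 (0.549 and 0.799) and PPARGC1A (0.473 and 0.687), and 0 were higher, where 10.1% of all genes were lower and 1.94% higher.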

How the data were processed

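The deposited files hold, per CpG cytosine and strand, counts of methylated and unmethylated reads, with at least 5 reads per site; the authors made these counts from MCC-Seq reads, and the submitters' processing notes name cutadapt 1.4.2, BSMAP 2.73 and hg19. Of the 3168726 sites shared by both libraries, 3167956 lie on a CG in GRCh37. SKNO-1 had 4713346 deposited sites with 83620068 reads and SKNO1-siAE had 4694016 with 82164216. Gene positions came from GENCODE release 44 mapped to GRCh37, and the most upstream start of each gene was used.

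Site levels were averaged per interval, and intervals of at least 10 shared sites were called at a difference of 0.2, the minimum difference of the study's methods. Fisher's exact test with Benjamini-Hochberg adjustment (threshold 0.05) was run over all shared sites. Regions followed the study's criteria for Metilene, with own code, and were used for counts and levels only, since sites are not replicates. Both steps were tested on simulated data, where every changed region held far more than 5 sites. Named with full values were every member whose promoter or rest of gene passed 0.2, at most 8 per direction and interval, and FOXO1, FOXO3, FOXO6, FOXP1, FOXP4, FOXM1, FOXC1, FOXC2, FOXA1, FOXA2, FOXK1, FOXK2, FOXN3, FOXJ1, FOXD3, FOXF1 and FOXL2. BCL2L11, CCND2, IRS2, PCK1 and PPARGC1A were named because they passed 0.2 in a listed pathway, and PIK3CA and PDPK1 after their values were seen. Of the members and listed genes counted here, 2 are not reported by name or drawn. The members and lists were chosen with earlier results of these data known. Stretches of neighbouring sites end at a gap of over 100 bp in promoters and over 1000 bp elsewhere and hold at least 5 sites; those printed were chosen after their values were seen. Tables were handled with pandas 2.3.3 and NumPy 2.4.6, tests run with numba 0.67.0 and SciPy 1.17.1, and figures drawn with matplotlib 3.10.9, in Python 3.11.15. Alternatives were other read and site minimums, pooled reads, single and merged strands, each library's own sites, the canonical start and a shorter promoter.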

Additional observations from a re-analysis of the deposited data

How the results depend on the processing

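No paired analysis was possible because each line has 1 library, and leaving 1 out leaves no comparison. The depth limits each value to the counting intervals given, and the spread between cultures of a line is unknown. Every alternative planned was run, and the cause of a change was not tested.

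The 5 promoters lower in SKNO-1 became 3 with the - strand only, 3 with a promoter of 500 bp on each side (FOXA3, FOXL2 and FOXN3) and 2 with a minimum difference of 0.3 (FOXN1 and FOXN3). The 2 higher became 1 with the canonical start, where FOXP2 reversed to -0.398, and 3 with pooled reads and with the - strand only, where FOXN2 was added. With pooled reads the lower promoters were FOXF2, FOXL2, FOXN1, FOXN3 and FOXO1, with at least 10 reads per site they were FOXF2, FOXL2, FOXN3 and FOXO1, on the + strand FOXJ1 no longer passed, and with the canonical start FOXO3 and FOXP2 were added to the 5 and FOXN3 was lost. The median promoter difference of 0 was -0.0171 with the - strand only, -0.0228 with merged strands, -0.0220 with each library's own sites and -0.0282 with the canonical start.

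The 5 rests of genes lower in SKNO-1 became 3 with a minimum difference of 0.3, and 7 with pooled reads, the - strand only and merged strands, where FOXI1 and FOXO3 were added (with the - strand also FOXJ1, without FOXP4). With own sites FOXD1 and FOXI1 took the place of FOXC1 and FOXP4, and with at least 10 reads FOXI1 and FOXO3 were added and FOXN1 could not be measured. On the + strand alone FOXB1 was added (-0.239, against -0.0168 on the - strand) and FOXC1 could not be measured. The 0 higher became 1 with at least 10 reads per site and 1 with the - strand only, FOXE1 in both. The median of -0.0329 was -0.0394 with at least 10 reads, -0.0651 with pooled reads, -0.0175 on the + strand, -0.0281 on the - strand, -0.0358 with merged strands and -0.0419 with own sites.

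Of the site calls in promoters, Bonferroni adjustment left 42 lower and 10 higher, and at least 10 reads left 68 higher. In the rest of genes Bonferroni adjustment left 167 lower and 52 higher. With at least 10 reads the promoter overlapping a lower region was FOXL2 in place of FOXF1, and FOXO1 left the rests of genes that did. Promoters overlapping a region higher in SKNO-1 fell to 0 with at least 10 reads and to 1 with a minimum difference of 0.3, and the 1 lower fell to 0 with 0.3. With fewer sites left, a region can miss the adjustment without a change of levels. Of 90 alternative values of the differences past 0.2, 78 stayed past 0.2 in the same direction. Some of these could not change. The shorter promoter leaves the rest of the gene as it was, and the canonical start left several intervals with the same sites. Values with fewer than 10 sites were not counted.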

Other observations

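Forkhead genes on the X chromosome stood outside the members. FOXP3, the factor of regulatory T cells, had a promoter level of 0.707 in SKNO-1 and 0.660 in SKNO1-siAE over 24 sites, and FOXO4 had 0.00192 and 0 over 40. The rest of FOXO4 had 0.193 and 0.370 over 32 sites, and the promoter of FOXR2 had 6 shared sites. None of these intervals with 10 sites differed by 0.2.

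FOXD4 has near-identical copies, and its values are uncertain for that reason. Of 6 such copies, FOXD4L1 alone had 10 or more shared sites in the rest of the gene, with 0.942 and 0.977 over 19, and 5 had 0 sites in either interval. FOXD4 itself had 0.996 and 1 over 27 sites in the rest of the gene.

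Noncoding genes that start beside members were measured in the same way. Of 10 promoters with enough sites, that of FENDRR, beside FOXF1, was the 1 that was lower by 0.2 (13.9% of coding promoters were), at 0.728 and 0.954 over 61 sites. FOXF2-DT, beside FOXF2, had 0.508 and 0.692 over 23. The rest of FOXP4-AS1, which starts inside FOXP4 and runs past its start on the other strand, had 0.431 in SKNO-1 and 0.842 in SKNO1-siAE over 312 sites, with -0.439 on the + strand and -0.382 on the - strand, and it was the 1 of 10 rests of these genes lower by 0.2 (10.1% of coding genes were). The promoter of FOXP4-AS1 had 0.993 and 0.955.

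Motifs were searched on both strands from 250 bp before to 50 bp after the gene start. The RUNX motif TGTGGT was in 4 of 42 forkhead promoters (9.52%) and in 12.4% of all 19229, and TGCGGT in 2 (4.76%) and 8.32%.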
